A study of Mus musculus with 30 samples.

Results

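The 42 genes described here encode the proteins that make ribosomes, and they were followed in the extensor digitorum longus (EDL), a fast muscle of the lower hindlimb, in a mouse model of multiple sclerosis. They are the rows of the deposited expression table whose gene symbol is on a list of ribosome biogenesis and rRNA processing genes, and all 42 names were found among the 21073 genes of the table. All mice were female SJL/J mice, and their age is not given in the sources used here. EAE mice (experimental autoimmune encephalomyelitis) were immunized with the myelin proteolipid protein peptide [Ser140]-PLP139-151 in complete Freund's adjuvant (CFA), OVA mice received ovalbumin in the same adjuvant, and Ctrl mice had no immunization. The EAE against Ctrl comparison therefore holds the peptide and the adjuvant together, while EAE and OVA mice share the adjuvant. EDL muscle was taken on day 14, at the peak of disease, or on day 40, in remission, from 5 mice per group, which gives 6 groups and 30 mice, and the mice of the 2 days are different animals. Each library is poly(A) RNA of a whole muscle.

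Ribosomes are assembled in the nucleolus, where RNA polymerase I (Pol I) transcribes a long precursor rRNA, small nucleolar ribonucleoproteins (snoRNPs) guide its methylation and pseudouridylation, and the small subunit processome cuts and folds the part that becomes the small subunit. Other factors mature the large subunit, and both subunits are exported and finished in the cytoplasm. The transcription factor MYC is known to promote the expression of many of these genes, and in skeletal muscle ribosome production is known to increase in growing fibres and in activated satellite cells. The members were ordered by role into 4 genes of Pol I transcription and its regulator MYC, 9 snoRNP proteins, 14 factors of the small subunit processome and small subunit maturation, 11 large subunit factors and 4 nucleolar proteins that act in several steps.

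Promoter windows of 36 of the 42 members were found in the RefSeq table of build GRCm38.p6, each running from 250 bases before to 50 bases after an annotated start. They were searched for 2 short strings, the E-box CACGTG, which MYC with its partner MAX is known to bind and which reads the same on both strands, and CCGGAAG, a core sequence of ETS family factors, on both strands. The strings share no overlap. CACGTG was in the windows of 6 of 36 members, or 16.7%, against 8.09% of 27025 genes with a window. Of these, 7078 passed the level limit for testing in at least 1 of the Ctrl, OVA and EAE groups of day 14, and 12.6% of the 7078 had CACGTG. The 36 members were not limited by level, and UTP20 is among them although it was not tested on day 14. CCGGAAG was in 13 of 36 members, or 36.1%, against 9.93% of all genes with a window and 21.6% of the 7078. The 4 stretches of 60 bases below are shown because they hold these strings, in capitals, ahead of the annotated start of 2 large subunit factors (NOP2 and NIP7), a small subunit factor (UTP18) and a snoRNP protein (NOLC1), and NOP2 is the member with both strings in 1 stretch.
NOP2: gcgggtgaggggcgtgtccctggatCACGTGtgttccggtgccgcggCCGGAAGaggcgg
UTP18: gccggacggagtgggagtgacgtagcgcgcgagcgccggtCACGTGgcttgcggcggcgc
NIP7: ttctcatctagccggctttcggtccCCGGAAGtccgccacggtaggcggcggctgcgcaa
NOLC1: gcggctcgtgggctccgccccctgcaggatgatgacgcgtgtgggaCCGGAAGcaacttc
These stretches lie at chr6:125131798-125131857 on the plus strand for NOP2, at chr11:93885767-93885826 on the minus strand for UTP18, at chr8:107056749-107056808 on the plus strand for NIP7 and at chr19:46075787-46075846 on the plus strand for NOLC1, and each is written 5′ to 3′ on the strand of its gene. The other members with CACGTG were UTP20, PES1, TSR1 and WDR43, and the other members with CCGGAAG were GAR1, NOC2L, BMS1, DDX10, NHP2, TSR1, UTP18, HEATR1, POLR1C and NOC3L. A match says only that the letters are present in the window.

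Levels are given in RPKM, reads per kilobase of transcript scaled to the mapped reads of a library, which can be compared between genes because they are set per length. The depth estimated from the smallest steps of the table, in units of 1e6 reads, was 17.9 to 31.2 per mouse with a median of 21.4. On day 14 Ctrl replicate 1 and OVA replicate 1 had the fewest genes above 3 RPKM, with 7656 and 7812, and counts are given below with and without them. The 10 most abundant genes held a smaller part of the reads in EAE mice on day 14, with a median of 18.0% against 20.9% in Ctrl and 19.7% in OVA mice. All muscles were rich in fibre transcripts, and no fibre marker was at 0 in every mouse of a group. The 10 fibre markers summed to 66787 to 81736 RPKM in EAE mice on day 14 and to 93673 to 129532 RPKM in Ctrl mice of that day.

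Across the 6 groups the members were most abundant in EAE muscle on day 14, where 38 of the 42 had their highest group mean. POLR1C had its highest mean in Ctrl mice of day 14, and BMS1, UTP15 and UTP20 had theirs in Ctrl mice of day 40. The group mean of NOP10 was the highest of all members in each group, at 78.8 ± 13.9 RPKM (SD, n = 5) in EAE and 63.6 ± 19.9 RPKM in Ctrl mice on day 14, and HEATR1, NOC3L, UTP15, UTP20 and RRP1B were the least abundant, with means between 1.92 and 3.98 RPKM in every group. The members also varied most between mice in the day 14 EAE group, with a median coefficient of variation of 18.6% against 11.3% in Ctrl and 14.9% in OVA mice of that day and 8.00% to 10.6% on day 40. In the map of all members and mice the EAE block of day 14 stands out, and within it replicates 1, 2 and 5 are darker than replicates 3 and 4.

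**Figure D1:**
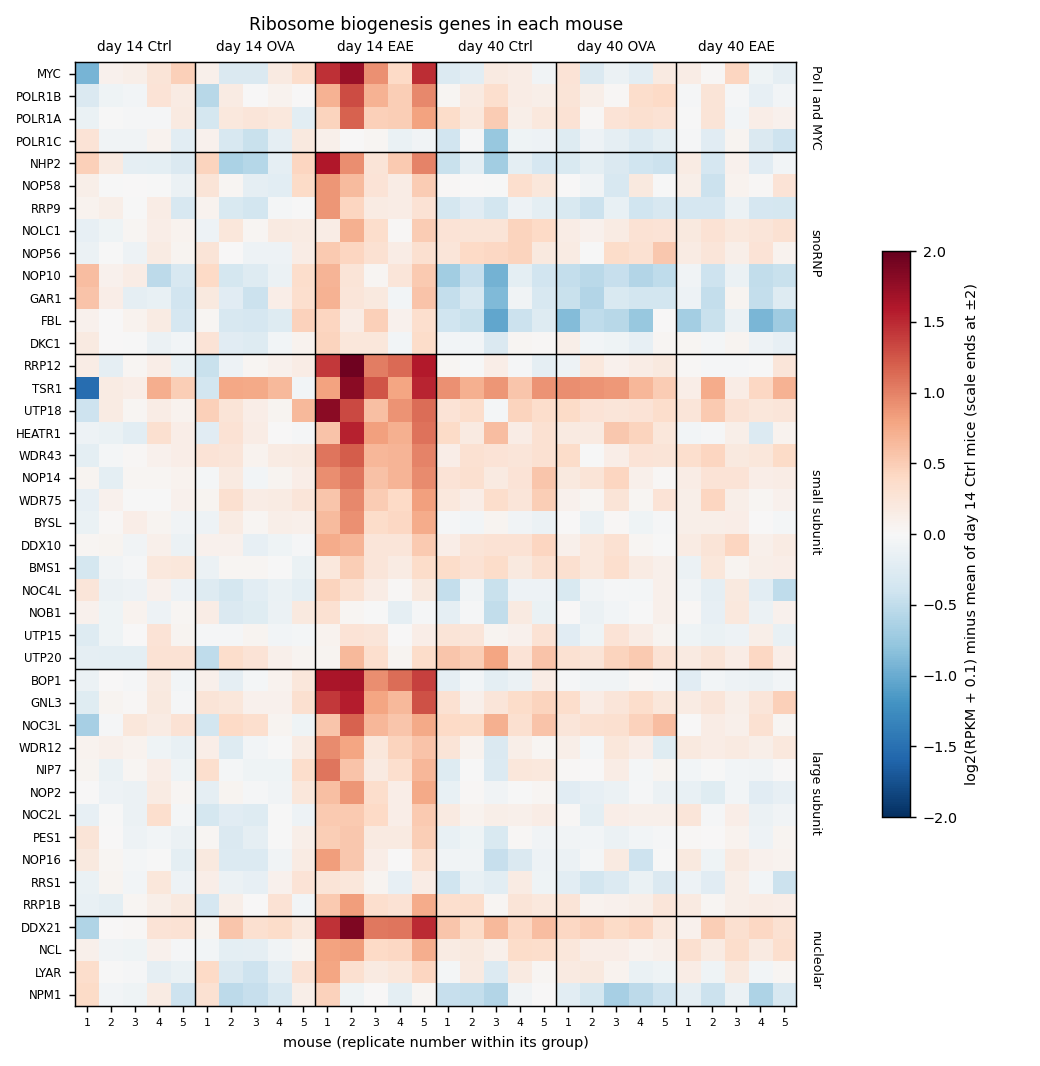
Each row is a member and each column a mouse, with the color giving log2(RPKM + 0.1) minus the mean of the day 14 Ctrl mice and lines separating groups and roles. The day 14 EAE mice are the block in which most rows are red, and 38 of 42 rows have their highest group mean there.

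On day 14 the ribosome biogenesis genes were higher in EAE than in Ctrl muscle. Of the 39 members that could be tested (mean above 3 RPKM in EAE or Ctrl mice), 28 rose at an adjusted p below 0.05, which is 71.8% against 28.8% of all 8771 tested genes, and none fell, against 19% of all. A change of more than 1.5-fold as well was found for 18 members, or 46.2%, against 14.6% of all tested genes. The EAE and Ctrl mice did not overlap for 19 tested members, or 48.7%, against 21.2% of all tested genes. The median log2 fold change of the tested members was 0.54, a fold of 1.46, and that of all tested genes was 0.11. HEATR1 and NOC3L were above 3 RPKM only in EAE mice, and among the 37 members that were above 3 RPKM in Ctrl mice 26 rose and 16 of these by more than 1.5-fold. RRP1B, UTP15 and UTP20 were below the limit in Ctrl, OVA and EAE mice and were not tested.

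Against OVA mice, which carried the adjuvant, the picture on day 14 was similar in size. Again 39 members were tested and 28 rose, against 23.8% of all tested genes, 16 of them by more than 1.5-fold, which is 41.0% against 11% of all tested genes. HEATR1 and NOC3L again reached the limit only in EAE mice, and among the 37 members above it in OVA mice 26 rose, 14 by more than 1.5-fold. None fell, against 15.3% of all tested genes, 22 tested members did not overlap between EAE and OVA mice against 18% of all tested genes, and the median log2 fold change was 0.51 against 0.11 for all genes. Both comparisons use the same EAE mice, so they are not independent. The 26 members that rose in both comparisons included 15 that passed 1.5-fold in both, and 9 members rose in neither, namely POLR1C, FBL, DKC1, GAR1, NOP10, NOB1, RRS1, NPM1 and LYAR. How many of all tested genes rose in both comparisons was not counted, so these numbers are not set against other genes. Without Ctrl replicate 1 and OVA replicate 1, 16 members passed both thresholds against Ctrl and 14 against OVA mice. The shares of all tested genes without these mice are not given here, so these counts show only how the calls of members moved. In whole muscle a larger number of cells of a type and more RNA per cell cannot be told apart.

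**Figure D2:**
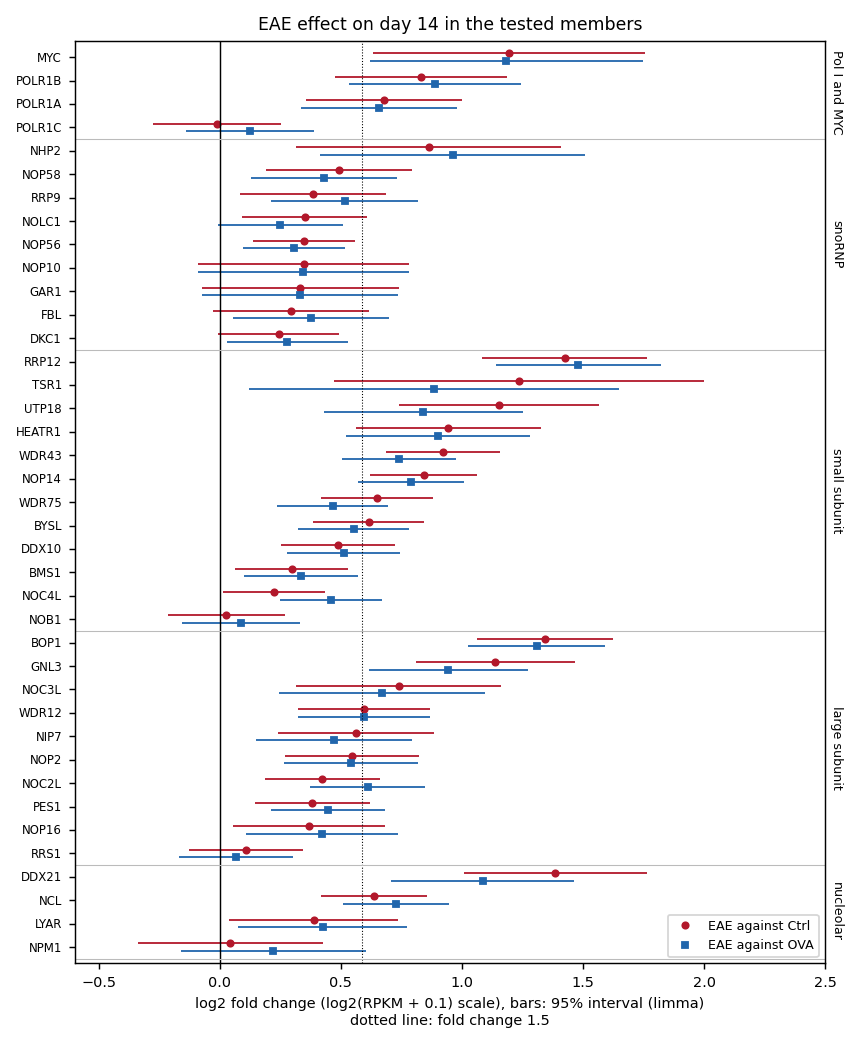
Points are log2 fold changes on the log2(RPKM + 0.1) scale of the 39 tested members, ordered by role, in EAE against Ctrl (circles) and EAE against OVA mice (squares) on day 14, with 95% intervals from limma and a dotted line at a 1.5-fold change. Most points lie right of 0, from RRP12 at 1.42 to POLR1C at -0.01 against Ctrl mice.

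Genes of Pol I transcription did not all change. POLR1A, the largest subunit of Pol I (chromosome 6, 71909053 to 71979435 in GRCm38), had 8.89, 14.9, 9.12, 9.24 and 11.5 RPKM in the 5 EAE mice against 5.97, 6.48, 6.45, 6.40 and 7.42 RPKM in Ctrl and 5.11, 7.60, 7.70, 7.60 and 5.66 RPKM in OVA mice. Every EAE mouse was above every Ctrl and OVA mouse, and the log2 fold change was 0.68 ± 0.15 (SE, adjusted p = 0.00205) against Ctrl and 0.66 ± 0.15 (adjusted p = 0.00331) against OVA mice. Without EAE replicate 2, the mouse with the highest POLR1A level, these values were 0.554 and 0.531, below the 1.5-fold limit of 0.585, and without OVA replicate 1 the value against OVA mice was 0.563. POLR1B, the second largest subunit, had 5.84, 8.96, 5.85, 5.04 and 7.03 RPKM in EAE, 2.90, 3.36, 3.42, 4.31 and 4.01 RPKM in Ctrl and 2.41, 4.02, 3.58, 3.74 and 3.60 RPKM in OVA mice. Its groups were also separate, with log2 fold changes of 0.83 ± 0.17 (adjusted p = 0.00101) and 0.89 ± 0.17 (adjusted p = 0.000741). POLR1C, a subunit that Pol I shares with Pol III, had 14.6, 13.6, 13.9, 12.3 and 13.0 RPKM in EAE, 16.4, 12.9, 12.9, 14.2 and 11.7 RPKM in Ctrl and 14.3, 10.8, 9.96, 11.9 and 15.5 RPKM in OVA mice. These groups overlapped, the log2 fold change against Ctrl mice was -0.01 ± 0.12 (adjusted p = 0.947), and its 95% interval from -0.28 to 0.25 lay within 1.5-fold.

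MYC (chromosome 15, 61985341 to 61990361) had 10.5, 12.5, 7.10, 4.96 and 10.6 RPKM in the EAE mice, 1.92, 3.96, 4.05, 4.49 and 5.21 RPKM in Ctrl and 4.03, 3.03, 3.06, 4.26 and 4.77 RPKM in OVA mice. EAE replicate 4 lay within the Ctrl range and the other 4 EAE mice above it, and MYC rose 2.29-fold against Ctrl (log2 fold change 1.19 ± 0.27, adjusted p = 0.00193) and 2.27-fold against OVA mice (adjusted p = 0.00264). Among the 15 other genes of the Pol I machinery (further subunits, initiation factors and regulators) 13 were tested against Ctrl mice, of which 3 rose and 1 fell, or 23.1% and 7.69% beside 28.8% and 19% of all tested genes. RRN3, the initiation factor that recruits Pol I, rose with a log2 fold change of 0.58 ± 0.11 (adjusted p = 0.000549), POLR1D had 0.45 ± 0.21 (adjusted p = 0.0794), and SIRT7, a deacetylase of the nucleolus, fell by 0.60 on the log2 scale (adjusted p = 0.0059). The SIRT7 difference from OVA mice was -0.20 (adjusted p = 0.318). The median of this list was 0.06, below that of all tested genes.

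Of the snoRNP proteins 5 of 9 rose against Ctrl and 4 of 9 against OVA mice, or 55.6% and 44.4% beside 28.8% and 23.8% of all tested genes. Only 1 of 9 (11.1%) rose by more than 1.5-fold in each comparison, beside 14.6% and 11% of all tested genes, and the median log2 fold changes were 0.35 and 0.34. FBL, the methyltransferase of the box C/D snoRNPs, had 6.72, 5.53, 6.92, 5.28 and 6.28 RPKM in EAE, 5.26, 5.01, 5.22, 5.59 and 3.93 RPKM in Ctrl and 5.08, 3.95, 3.90, 4.16 and 6.87 RPKM in OVA mice. The groups overlapped and the log2 fold change of 0.29 ± 0.15 against Ctrl did not pass the test (adjusted p = 0.121). NOP56, a core protein of the same particles, had 17.3, 16.2, 14.8, 13.3 and 15.0 RPKM in EAE, 11.0, 12.0, 11.2, 13.4 and 12.4 RPKM in Ctrl and 14.3, 12.0, 11.2, 11.1 and 13.2 RPKM in OVA mice, and rose with a log2 fold change of 0.35 ± 0.10 (adjusted p = 0.00974) against Ctrl and 0.31 ± 0.10 (adjusted p = 0.0231) against OVA mice, although the groups overlapped slightly. RRP9, which binds the U3 snoRNA of the processome, had 28.6, 20.9, 17.3, 17.1 and 18.9 RPKM in EAE, 16.1, 16.6, 15.3, 17.2 and 12.4 RPKM in Ctrl and 16.2, 12.5, 11.9, 15.0 and 15.4 RPKM in OVA mice. EAE replicate 1 was the highest, and the log2 fold changes were 0.38 ± 0.14 (adjusted p = 0.0368) and 0.51 ± 0.14 (adjusted p = 0.0103).

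Of the box H/ACA proteins, DKC1, the pseudouridine synthase, had 19.3, 16.5, 16.6, 13.7 and 18.4 RPKM in EAE, 16.1, 14.2, 14.1, 13.0 and 13.6 RPKM in Ctrl and 17.2, 12.0, 11.9, 13.7 and 14.9 RPKM in OVA mice. Its log2 fold change of 0.24 ± 0.12 against Ctrl was the smallest of the snoRNP proteins and did not pass the test (adjusted p = 0.0989). NHP2 (spelled nhp2 in the table), a core protein of the same complex, showed the largest change of the snoRNP proteins. Its levels were 67.1, 42.1, 26.4, 31.8 and 43.9 RPKM in EAE, 30.7, 25.1, 19.5, 19.2 and 18.0 RPKM in Ctrl and 29.9, 14.2, 14.9, 19.5 and 29.8 RPKM in OVA mice, so that EAE replicate 3 lay within both ranges and replicate 1 far above them. NHP2 rose 1.82-fold against Ctrl (log2 fold change 0.86 ± 0.26, adjusted p = 0.0127) and 1.95-fold against OVA mice (adjusted p = 0.00848). The other members of the complex, GAR1 with 0.33 (adjusted p = 0.162) and NOP10 with 0.35 (adjusted p = 0.174), did not pass the test against Ctrl mice, while NOP58 with 0.49 (adjusted p = 0.0104) and NOLC1 with 0.35 (adjusted p = 0.0273) did. Of 12 genes for snoRNP assembly, 11 were in the table and 10 were tested. Against Ctrl mice 7 (70%) rose, beside 28.8% of all tested genes, with a list median of 0.30. Only 8 of the list passed the limit for testing in OVA against Ctrl mice on day 14. Some of the 10 therefore reached it only through EAE mice. NAF1, an assembly factor of the H/ACA particles, had 0.71 ± 0.14 (adjusted p = 0.000878), NUFIP1 had 0.53 ± 0.13 (adjusted p = 0.0032), and PIH1D1 had -0.34 ± 0.17 (adjusted p = 0.104).

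Among the factors of the small subunit is RRP12, the member with the largest change. In this group 10 of the 12 tested members (83.3%) rose against Ctrl, 8 by more than 1.5-fold (66.7%). Against OVA mice 10 rose, 5 by more than 1.5-fold (41.7%), and the median log2 fold changes were 0.75 and 0.65. Of all tested genes 28.8% and 23.8% rose in these comparisons, and 14.6% and 11% by more than 1.5-fold. RRP12, an export factor of the small subunit (chromosome 19, 41859483 to 41896153), had 31.8, 46.0, 24.2, 26.0 and 35.8 RPKM in EAE mice against 13.0, 10.4, 12.2, 13.0 and 10.8 RPKM in Ctrl and 8.65, 11.0, 12.1, 12.6 and 13.2 RPKM in OVA mice. The lowest EAE mouse was well above the highest of the other mice, and RRP12 rose 2.68-fold against Ctrl (log2 fold change 1.42 ± 0.16, adjusted p = 8.01e-06) and 2.79-fold against OVA mice (adjusted p = 8.38e-06). HEATR1, a processome protein also needed for Pol I transcription, had 2.96, 5.88, 3.54, 3.26 and 4.27 RPKM in EAE, 1.82, 1.78, 1.68, 2.46 and 2.16 RPKM in Ctrl and 1.66, 2.43, 2.19, 1.98 and 1.93 RPKM in OVA mice. All EAE mice were higher, with log2 fold changes of 0.94 ± 0.18 (adjusted p = 0.000649) and 0.90 ± 0.18 (adjusted p = 0.00113), and this member reached the limit for testing only through its EAE mean. BYSL, which acts in late nuclear maturation, had 11.9, 14.6, 9.93, 10.2 and 13.0 RPKM in EAE, 6.96, 7.80, 8.42, 7.94 and 7.27 RPKM in Ctrl and 7.13, 8.59, 7.86, 8.30 and 8.23 RPKM in OVA mice. The groups were separate, with log2 fold changes of 0.62 ± 0.11 (adjusted p = 0.000361) and 0.55 ± 0.11 (adjusted p = 0.000999), the first above and the second below the 1.5-fold limit. The first fell to 0.581 without Ctrl replicate 1, 0.539 without EAE replicate 2 and 0.581 without EAE replicate 5, all under the limit of 0.585, and was also under it with a pseudocount of 1 (0.563) or median-of-ratios factors (0.582), and the second passed it without EAE replicate 3 (0.613) or replicate 4 (0.604).

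UTP20, a processome protein, had 2.02, 3.11, 2.48, 2.04 and 2.54 RPKM in EAE, 1.70, 1.68, 1.68, 2.40 and 2.41 RPKM in Ctrl and 1.34, 2.51, 2.37, 2.10 and 2.04 RPKM in OVA mice, with overlapping groups and no test because of its low level. NOB1, the nuclease of the last cut of the small subunit rRNA, had 20.0, 16.6, 16.1, 14.2 and 15.9 RPKM in EAE, 17.1, 15.2, 16.9, 15.1 and 16.6 RPKM in Ctrl and 18.0, 13.1, 13.7, 14.9 and 18.6 RPKM in OVA mice. It was the least changed of this group, with a log2 fold change of 0.03 ± 0.11 against Ctrl (adjusted p = 0.865) and a 95% interval from -0.22 to 0.27. Of the other members, TSR1, a late cytoplasmic factor, had 7.63, 15.4, 10.4, 7.57 and 12.6 RPKM in EAE and 1.44, 4.87, 4.75, 7.26 and 6.16 RPKM in Ctrl mice. Ctrl replicate 1 was the lowest mouse, and the log2 fold change was 1.23 ± 0.36 against Ctrl (adjusted p = 0.0109) and 0.88 ± 0.36 against OVA mice (adjusted p = 0.0627). UTP18 with 1.15, WDR43 with 0.92, NOP14 with 0.84 and WDR75 with 0.65 rose by more than 1.5-fold against Ctrl, DDX10 with 0.49 and BMS1 with 0.30 rose by less, and NOC4L with 0.22 did not pass the test (adjusted p = 0.0726) but did against OVA mice with 0.46 (adjusted p = 0.00206).

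The large subunit factors rose in 8 of 10 tested members against Ctrl and in 9 of 10 against OVA mice. These are 80% and 90%, beside 28.8% and 23.8% of all tested genes. A rise of more than 1.5-fold was found for 40% and 50%, beside 14.6% and 11% of all tested genes. The median log2 fold changes were 0.55 and 0.57. NOC3L, which rose by more than 1.5-fold in both comparisons and is in these counts, reached the limit for testing only through its EAE mean. BOP1, a scaffold of the complex with PES1 and WDR12 that processes the large subunit rRNA (chromosome 15, 76452988 to 76477249), had 37.1, 37.3, 22.7, 25.8 and 30.8 RPKM in EAE mice against 10.9, 12.0, 11.7, 13.4 and 11.5 RPKM in Ctrl and 12.8, 10.4, 11.5, 12.4 and 13.9 RPKM in OVA mice. No EAE mouse came near the others, and BOP1 rose 2.54-fold against Ctrl (log2 fold change 1.34 ± 0.13, adjusted p = 3.06e-06) and 2.48-fold against OVA mice (adjusted p = 4.87e-06). PES1 had 21.4, 22.1, 17.2, 17.2 and 21.3 RPKM in EAE, 18.1, 15.2, 14.0, 14.5 and 14.0 RPKM in Ctrl and 15.5, 12.3, 13.3, 14.9 and 16.4 RPKM in OVA mice. Its change was smaller, with 0.38 ± 0.11 (adjusted p = 0.0109) and 0.45 ± 0.11 (adjusted p = 0.0054), and Ctrl replicate 1 lay within the EAE range. WDR12, the third protein of the complex, had a log2 fold change of 0.59 ± 0.13 against Ctrl (adjusted p = 0.00163), close to the 1.5-fold limit, and lay under the limits in 4 of the 10 fits that left out a mouse.

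GNL3 (nucleostemin), a GTP-binding protein of the nucleolus, had 38.4, 42.9, 24.8, 22.5 and 35.0 RPKM in EAE, 12.2, 14.9, 14.6, 16.5 and 14.1 RPKM in Ctrl and 17.2, 16.8, 15.3, 15.2 and 18.0 RPKM in OVA mice. It rose 2.20-fold against Ctrl (log2 fold change 1.14 ± 0.15, adjusted p = 4.3e-05) and 1.92-fold against OVA mice (adjusted p = 0.000232), with no overlap. NOP2, an rRNA methyltransferase, had 15.4, 18.8, 12.9, 11.1 and 17.1 RPKM in EAE, 10.2, 9.43, 9.28, 11.4 and 10.4 RPKM in Ctrl and 8.88, 10.5, 9.95, 9.64 and 11.8 RPKM in OVA mice. It rose by 0.54 ± 0.13 and 0.54 ± 0.13 on the log2 scale (adjusted p = 0.00323 and 0.00415), just under the 1.5-fold limit, and EAE replicate 4 lay within both other ranges. NOP2 passed the limit against Ctrl mice without EAE replicate 3 (0.594), EAE replicate 4 (0.646) or Ctrl replicate 4 (0.587), and against OVA mice without EAE replicate 3 (0.593), EAE replicate 4 (0.645) or OVA replicate 5 (0.598). RRS1, which joins the large subunit with the ribosomal 5S particle, had 17.9, 17.7, 15.7, 13.5 and 16.7 RPKM in EAE, 13.7, 15.7, 14.5, 17.6 and 14.1 RPKM in Ctrl and 16.4, 13.8, 13.4, 16.1 and 18.2 RPKM in OVA mice. The groups overlapped and the log2 fold change of 0.11 ± 0.11 was the smallest of this group (adjusted p = 0.443). Among the others, NOC3L had 0.74, NIP7 0.56 and NOC2L 0.42 against Ctrl mice as log2 fold changes that passed the test, NOP16 had 0.37 (adjusted p = 0.0502), and RRP1B, with an EAE mean of 2.98 ± 0.514 RPKM just under the limit for testing, had a Ctrl mean of 2.00 ± 0.240 RPKM.

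Of the nucleolar proteins that act in several steps, the RNA helicase DDX21 changed most. DDX21 had 26.7, 35.7, 20.3, 20.4 and 27.6 RPKM in EAE mice, 6.40, 9.79, 9.91, 11.8 and 11.9 RPKM in Ctrl and 10.1, 14.3, 12.2, 12.5 and 11.3 RPKM in OVA mice, and rose 2.61-fold against Ctrl (log2 fold change 1.38 ± 0.18, adjusted p = 2.56e-05) and 2.12-fold against OVA mice (adjusted p = 0.000237). NCL (nucleolin), an abundant nucleolar protein, had 63.4, 64.1, 47.7, 48.0 and 59.4 RPKM in EAE, 38.6, 34.3, 34.0, 38.2 and 35.3 RPKM in Ctrl and 34.8, 31.4, 31.7, 34.4 and 37.1 RPKM in OVA mice. Both groups of control mice lay below all EAE mice, with log2 fold changes of 0.64 ± 0.10 (adjusted p = 0.000175) and 0.73 ± 0.10 (adjusted p = 6.69e-05). NPM1 (nucleophosmin), a chaperone of the nucleolus, had 35.0, 23.8, 25.4, 22.2 and 25.9 RPKM in EAE, 33.3, 24.5, 23.9, 28.3 and 19.1 RPKM in Ctrl and 31.2, 17.6, 18.3, 20.4 and 27.6 RPKM in OVA mice. The groups overlapped widely, with a log2 fold change of 0.04 ± 0.18 against Ctrl (adjusted p = 0.862) and a 95% interval from -0.34 to 0.43. LYAR had 0.39 (adjusted p = 0.0638).

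**Figure D3:**
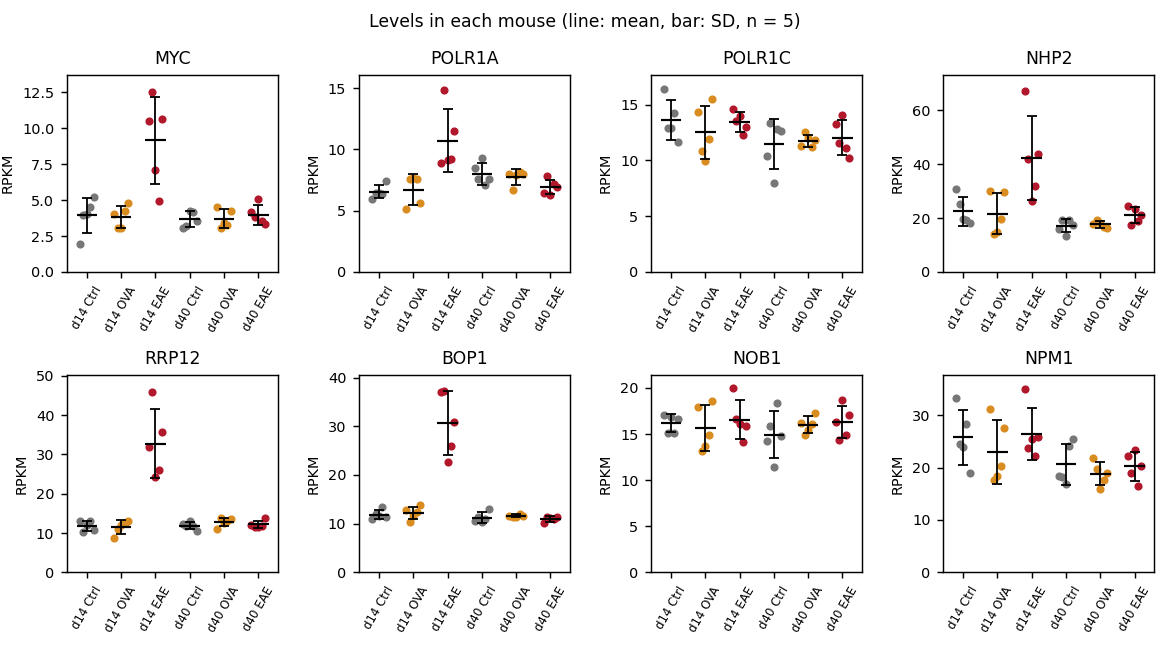
RPKM of 8 members in each of the 30 mice, with the mean as a line and the SD as a bar (n = 5 per group). RRP12, BOP1, POLR1A, MYC and NHP2 have their highest mean in EAE mice of day 14, with RRP12 at 32.7 ± 8.74 RPKM there against 11.9 ± 1.24 RPKM in Ctrl mice. MYC and NHP2 each have an EAE mouse within the Ctrl range of that day, and POLR1C, NOB1 and NPM1 overlap between the groups.

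The 5 EAE mice of day 14 differed among themselves in the same direction for most members. EAE replicate 2 had the highest level in 23 members and replicate 1 in 18, while replicate 4 had the lowest in 25 and replicate 3 in 14. The members summed to 862, 829, 624, 611 and 777 RPKM in EAE replicates 1 to 5, against 461 to 544 RPKM in the Ctrl mice. The satellite cell and myoblast markers summed to 4593, 3750, 2852, 3206 and 3647 RPKM in the same mice and to 1756 to 2620 RPKM in Ctrl mice. DES, which is also expressed in fibres, held most of that sum. Of the 5 tested markers of the list 4 rose and 1, CHODL, fell against Ctrl mice (log2 fold change -0.30, adjusted p = 0.0339), and against OVA mice 4 rose and CHODL had -0.12 (adjusted p = 0.406). Of all tested genes 28.8% rose and 19% fell against Ctrl, and 23.8% rose and 15.3% fell against OVA mice. The 10 neutrophil markers summed to 394, 354, 212, 210.2 and 203 RPKM in the EAE mice, to 4.69 to 10.5 RPKM in Ctrl and to 65.4 to 231 RPKM in OVA mice. All 4 tested neutrophil markers rose against Ctrl mice, while against OVA mice only S100A8 rose (log2 fold change 2.31, adjusted p = 0.000139) and S100A9 had -0.96 (adjusted p = 0.0638), NGP -0.86 (adjusted p = 0.0993) and RETNLG -1.05 (adjusted p = 0.109). The 10 neutrophil markers summed to a mean of only 7.00 RPKM in Ctrl mice. Some of the 4 therefore passed the limit of 3 RPKM against Ctrl mice only through their EAE mean.

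Markers of other cell types were measured in the same way on day 14, when 19% of all tested genes fell against Ctrl mice. Macrophage markers summed to 155 to 351 RPKM in EAE and 334 to 495 RPKM in Ctrl mice, and 7 of 10 fell. Markers of fibro-adipogenic progenitors summed to 775 to 1107 RPKM in EAE and 1540 to 1707 RPKM in Ctrl mice, and 8 of 10 fell, while 5 of 10 endothelial markers fell (109 to 157 RPKM in EAE and 135 to 180 RPKM in Ctrl mice, summed) and 4 of 4 tested erythroid markers fell (26.5 to 189 and 189 to 684 RPKM). Of the Schwann cell markers, 6 were tested and none passed the test with limma (80.4 to 122 RPKM in EAE and 114 to 124 RPKM in Ctrl mice). Lymphocyte markers, with 2.35 to 4.41 RPKM in EAE and 4.30 to 9.14 RPKM in Ctrl mice, and markers of proliferating cells, with 2.00 to 2.87 and 3.81 to 6.40 RPKM, were too low to be tested. Among the fibre markers 3 of 10 fell and none rose. No marker of these lists was at 0 in every mouse of a day 14 group. The part of these shifts in the changes of the members was not tested.

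Other genes of ribosome production were measured in the same comparison, in which 28.8% of all tested genes rose and 19% fell. A rise of more than 1.5-fold was found for 14.6% of all tested genes. Of 43 further small subunit factors 41 were tested against Ctrl mice on day 14, and 24 (58.5%) rose, 12 by more than 1.5-fold, with a median of 0.38 on the log2 scale. WDR46, a processome protein, had 1.11 ± 0.20 (adjusted p = 0.000518), DNTTIP2 had 0.88 ± 0.12 (adjusted p = 4.41e-05), and TSR3, which modifies the small subunit rRNA, had -0.31 ± 0.13 (adjusted p = 0.0663). Of 48 further large subunit factors 44 were tested and 25 (56.8%) rose, 14 by more than 1.5-fold, with a median of 0.40, led by SDAD1 with 1.08 ± 0.16 (adjusted p = 7.86e-05) and MAK16 with 1.07 ± 0.15 (adjusted p = 5.71e-05), and with SBDS, which acts in the last step of the large subunit, at -0.16 ± 0.13 (adjusted p = 0.324). No gene of either list fell. The RNA exosome and RNase MRP, which trim and cut the precursor, had 9 of 21 tested genes that rose (42.9%) and a median of 0.24, with DIS3 (spelled dis3 in the table) at 1.23 ± 0.22 (adjusted p = 0.000346), RPP40 at 0.79 ± 0.17 (adjusted p = 0.00156) and POP5 at -0.34 ± 0.19 (adjusted p = 0.156). Of 79 cytosolic ribosomal protein genes 73 were tested, and 11 rose and 1 fell, with a median of 0.26. These are 15.1% and 1.37%, both below the shares of all tested genes. RPL4 had 0.84 ± 0.12 (adjusted p = 8.12e-05), RPL32 had 0.80 ± 0.20 (adjusted p = 0.00359) and RPL9 fell by 0.65 on the log2 scale (adjusted p = 0.0452). The day 14 OVA against Ctrl comparison tested 39 further small subunit, 20 exosome and RNase MRP and 72 ribosomal protein genes. Some genes of these lists therefore reached the limit for testing against Ctrl mice only through EAE mice. Ribosomal protein genes and NPM1 have many near-identical copies in the genome, so their levels are uncertain to the extent that reads could be split. The 17 listed host transcripts of snoRNAs and the precursor rRNA were not found by name in the table, so no levels are given for them.

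**Figure D4:**
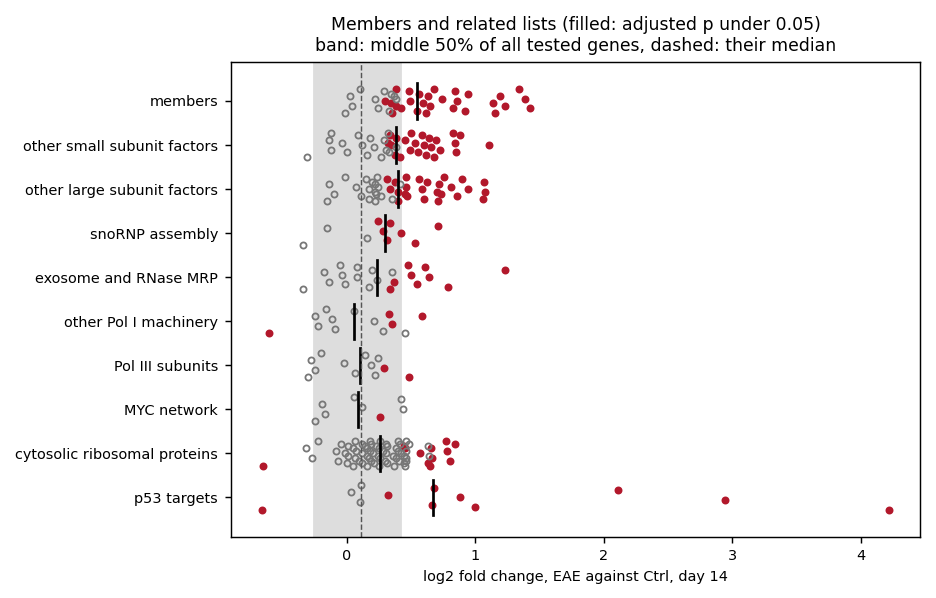
Log2 fold changes of the members and of 9 related lists in EAE against Ctrl mice on day 14, with filled points for an adjusted p below 0.05, a bar at the list median, and the band and dashed line for the middle 50% and the median of all tested genes. The median of the members, 0.54, lies above the medians of the further small and large subunit factors, 0.38 and 0.40.

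In OVA against Ctrl mice on day 14 no member passed the test. Of 37 tested members 0 passed the adjusted threshold with limma, at which 0.0944% of all tested genes were higher and 0.059% lower. At an unadjusted p below 0.05 were 0 members that were higher and 1 that was lower, beside 3.9% and 5.8% of all tested genes. The lowest adjusted p was 0.458, the median log2 fold change was 0.00, and the 95% intervals of 33 members lay within a 1.5-fold change in both directions. TSR1 had the largest difference, with 0.35 ± 0.36 (adjusted p = 0.77). The count stayed at 0 without Ctrl replicate 1 and OVA replicate 1.

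On day 40 the levels of the members were near each other in the 3 groups. In EAE against Ctrl mice 38 members were tested and 0 passed the adjusted threshold with limma, while 0.288% of all tested genes passed as higher and 2.35% as lower. At an unadjusted p below 0.05 were 8 members, 2 higher and 6 lower, beside 7.62% and 20.3% of all tested genes, and 36 of the 38 intervals lay within 1.5-fold. NOC3L had the lowest adjusted p, 0.069, and was the 1 tested member whose EAE and Ctrl mice did not overlap, with EAE mice lower as in 4.51% of all tested genes. In EAE against OVA mice 0 of 37 members passed (0.0582% of all tested genes higher and 0.582% lower), 2 higher and 2 lower members had an unadjusted p below 0.05 (3.72% and 13.7% of all), and 36 intervals lay within 1.5-fold. In OVA against Ctrl mice 0 of 38 passed as did 0% of all tested genes, 0 higher and 1 lower member had an unadjusted p below 0.05 (1.39% and 1.73% of all), and all 38 intervals lay within 1.5-fold. These intervals show that differences of more than 1.5-fold were outside the range allowed by the data for nearly all members.

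The mice of day 40 show the same. POLR1A had 6.48, 7.80, 6.29, 7.15 and 6.92 RPKM in EAE, 8.48, 7.61, 9.29, 7.07 and 7.55 RPKM in Ctrl and 8.00, 6.66, 7.95, 8.16 and 8.01 RPKM in OVA mice. POLR1B had 3.49, 4.28, 3.49, 3.18 and 3.45 RPKM in EAE, 3.67, 4.07, 4.52, 3.95 and 3.89 RPKM in Ctrl and 4.30, 3.87, 3.64, 4.57 and 4.71 RPKM in OVA mice. Both Pol I subunits overlapped between EAE and the other groups, with log2 fold changes against Ctrl of -0.20 (adjusted p = 0.147) and -0.17 (adjusted p = 0.266). POLR1C had 13.3, 11.6, 14.0, 11.1 and 10.2 RPKM in EAE, 10.4, 13.4, 8.00, 12.8 and 12.7 RPKM in Ctrl and 11.3, 12.6, 12.0, 11.2 and 11.8 RPKM in OVA mice. MYC had 4.17, 3.79, 5.06, 3.53 and 3.30 RPKM in EAE, 3.08, 3.20, 4.27, 4.17 and 3.57 RPKM in Ctrl and 4.52, 3.03, 3.42, 3.23 and 4.26 RPKM in OVA mice. The MYC levels of the 3 groups overlapped, and no EAE mouse of day 40 reached the 4 higher EAE mice of day 14.

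Among the snoRNP proteins on day 40, FBL had 3.08, 3.63, 4.58, 2.59 and 2.99 RPKM in EAE, 3.73, 3.61, 2.37, 3.68 and 4.12 RPKM in Ctrl and 2.67, 3.48, 3.33, 2.91 and 4.97 RPKM in OVA mice. NOP56 had 13.4, 14.2, 12.9, 14.5 and 12.6 RPKM in EAE, 14.1, 15.8, 16.0, 16.3 and 13.7 RPKM in Ctrl and 13.5, 11.9, 15.5, 14.9 and 17.4 RPKM in OVA mice. Both overlapped between the groups. RRP9 had 12.1, 12.2, 14.2, 12.2 and 12.1 RPKM in EAE, 12.0, 13.1, 11.9, 14.4 and 13.5 RPKM in Ctrl and 12.5, 11.4, 13.9, 11.7 and 12.3 RPKM in OVA mice. DKC1 had 14.5, 13.8, 14.7, 13.2 and 12.7 RPKM in EAE, 13.7, 13.7, 11.6, 14.6 and 14.4 RPKM in Ctrl and 15.5, 13.6, 13.3, 12.6 and 14.6 RPKM in OVA mice. Neither RRP9 nor DKC1 was separate between groups. NHP2 (nhp2) had 24.6, 17.4, 23.4, 18.8 and 21.3 RPKM in EAE, 16.1, 19.4, 13.5, 19.2 and 17.4 RPKM in Ctrl and 17.9, 19.3, 18.1, 16.7 and 16.3 RPKM in OVA mice, the largest positive difference from Ctrl of all members on day 40, with a log2 fold change of 0.30 ± 0.11 (adjusted p = 0.1).

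For the small subunit on day 40, RRP12 had 12.0, 11.6, 11.6, 11.7 and 13.9 RPKM in EAE, 12.2, 11.7, 13.0, 11.7 and 10.5 RPKM in Ctrl and 11.0, 13.7, 12.6, 13.2 and 13.5 RPKM in OVA mice, with overlapping groups. HEATR1 had 1.89, 1.93, 2.13, 1.60 and 2.06 RPKM in EAE, 2.58, 2.24, 3.04, 2.19 and 2.44 RPKM in Ctrl and 2.23, 2.24, 2.91, 2.70 and 2.31 RPKM in OVA mice. All 5 EAE mice were below all Ctrl and OVA mice for HEATR1, which was too low on this day to be tested. Among tested genes 4.51% were separate and lower in this way against Ctrl and 4.9% against OVA mice. BYSL had 8.31, 8.36, 8.40, 7.73 and 7.46 RPKM in EAE, 7.51, 7.37, 7.94, 7.33 and 7.04 RPKM in Ctrl and 7.67, 6.96, 7.78, 7.19 and 7.55 RPKM in OVA mice. UTP20 had 2.22, 2.34, 2.17, 2.61 and 2.15 RPKM in EAE, 2.91, 2.77, 3.44, 2.38 and 2.95 RPKM in Ctrl and 2.43, 2.35, 2.68, 2.83 and 2.39 RPKM in OVA mice. NOB1 had 16.3, 14.4, 18.7, 14.9 and 17.1 RPKM in EAE, 14.3, 15.9, 11.4, 18.4 and 14.7 RPKM in Ctrl and 16.2, 14.9, 15.5, 16.1 and 17.3 RPKM in OVA mice. The groups overlapped for BYSL, UTP20 and NOB1. TSR1 had the largest negative difference from Ctrl of all members, with a log2 fold change of -0.37 ± 0.13 (adjusted p = 0.0947), next to NOC3L with -0.36 ± 0.11 (adjusted p = 0.069).

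For the large subunit on day 40, BOP1 had 10.0, 11.4, 11.1, 10.9 and 11.4 RPKM in EAE, 10.5, 11.4, 10.3, 10.9 and 13.1 RPKM in Ctrl and 11.7, 11.3, 11.3, 12.0 and 11.6 RPKM in OVA mice. PES1 had 15.4, 15.1, 15.8, 14.1 and 15.7 RPKM in EAE, 13.6, 14.3, 12.2, 15.4 and 14.4 RPKM in Ctrl and 14.4, 14.5, 14.0, 14.6 and 14.9 RPKM in OVA mice. The groups overlapped, and the BOP1 fold change against Ctrl mice was -0.03 ± 0.07 on the log2 scale. NOP2 had 9.06, 8.52, 9.76, 8.65 and 8.98 RPKM in EAE, 9.10, 10.3, 9.61, 10.0 and 10.4 RPKM in Ctrl and 8.58, 9.05, 9.36, 9.92 and 9.34 RPKM in OVA mice. GNL3 had 16.1, 17.0, 15.6, 17.1 and 20.2 RPKM in EAE, 17.9, 15.4, 17.0, 18.6 and 19.6 RPKM in Ctrl and 18.4, 15.9, 17.0, 18.3 and 16.9 RPKM in OVA mice. RRS1 had 14.0, 12.9, 16.4, 14.4 and 11.2 RPKM in EAE, 11.4, 13.6, 13.0, 16.9 and 14.2 RPKM in Ctrl and 12.9, 11.6, 12.4, 13.8 and 12.3 RPKM in OVA mice. These 3 overlapped as well. NCL had 44.9, 40.3, 46.0, 40.8 and 45.5 RPKM in EAE, 40.5, 41.3, 38.6, 46.3 and 45.9 RPKM in Ctrl and 42.03, 39.5, 39.5, 37.8 and 38.7 RPKM in OVA mice. NPM1 had 22.3, 18.9, 23.4, 16.5 and 20.2 RPKM in EAE, 18.4, 18.1, 16.9, 24.2 and 25.5 RPKM in Ctrl and 21.9, 19.8, 16.0, 17.6 and 18.9 RPKM in OVA mice. DDX21 had 10.4, 13.8, 12.1, 13.0 and 12.1 RPKM in EAE, 14.3, 12.6, 15.2, 13.0 and 15.0 RPKM in Ctrl and 12.9, 13.5, 12.6, 13.1 and 11.3 RPKM in OVA mice. None of these nucleolar proteins was separate between EAE and Ctrl mice.

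The EAE effect differed between the days for most members. In the test of that difference in all 30 mice, 26 of 39 members had a smaller EAE effect against Ctrl on day 40 than on day 14, or 66.7% against 32.1% of all tested genes, and 0 had a larger one, against 16.5% of all. Against OVA mice the counts were also 26 of 39 smaller, against 24% of all tested genes, and 0 larger, against 11.1%, and 24 members passed in both tests, which share the EAE mice. How many of all tested genes passed in both tests was not counted. Leaving aside HEATR1 against Ctrl and HEATR1 and NOC3L against OVA mice, which were above 3 RPKM only in day 14 EAE mice among the groups compared, the counts were 25 of 38 and 24 of 37. The median change of the effect was -0.55 against Ctrl and -0.49 against OVA mice on the log2 scale, beside -0.15 and -0.16 for all tested genes. Dividing by median-of-ratios factors moved the medians of all genes to -0.02 and -0.04 and those of the members to -0.42 and -0.38, with 21 and 19 members passing. The shares of all tested genes that passed with these factors are not given here. By role 3 of 4 genes of Pol I and MYC, 4 of 9 snoRNP proteins, 10 of 12 small subunit factors, 7 of 10 large subunit factors and 2 of 4 nucleolar proteins passed against Ctrl mice. The largest changes against Ctrl mice were those of TSR1 with -1.60 ± 0.40 (adjusted p = 0.00218), DDX21 with -1.58 ± 0.20 (adjusted p = 1.05e-06), RRP12 with -1.38 ± 0.18 (adjusted p = 1.56e-06), BOP1 with -1.37 ± 0.15 (adjusted p = 1.21e-07) and HEATR1 with -1.30 ± 0.21 (adjusted p = 2.5e-05). GNL3 with -1.18, UTP18 with -1.13, NOC3L with -1.10 and MYC with -1.08 also changed by more than 1 log2 unit. NHP2 had -0.56 ± 0.29 (adjusted p = 0.113) and did not pass.

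**Figure D5:**
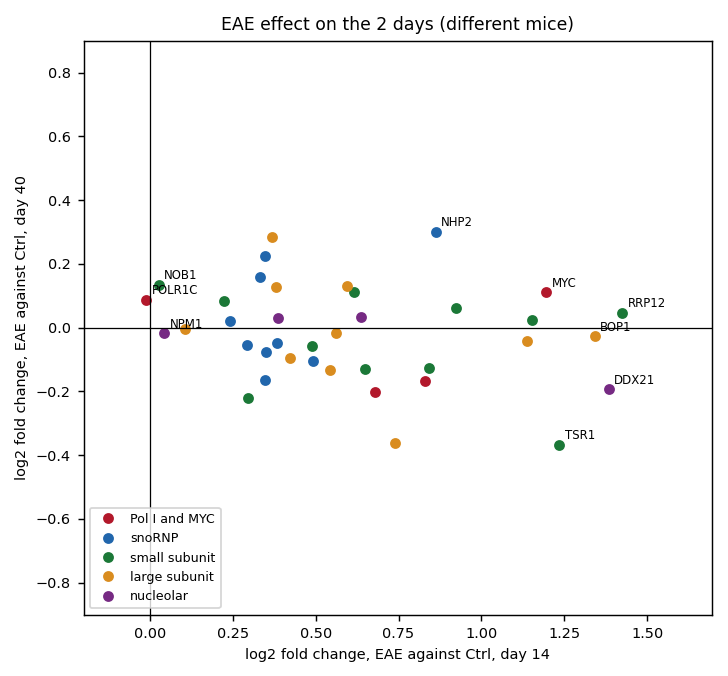
Each point is a member tested against Ctrl mice on both days, colored by role, with the log2 fold change of EAE against Ctrl on day 14 on the x axis and on day 40 on the y axis. The points spread to the right up to 1.42 for RRP12 but stay between -0.37 and 0.30 on the y axis.

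Set against the earlier day within each group, the members of day 40 were lower in EAE mice. There 31 of 39 tested members fell, which is 79.5% against 31.3% of all tested genes, and none rose, against 17.8%, while 19 fell by more than 1.5-fold against 12.7% of all genes, led by BOP1 with -1.45 ± 0.10 (adjusted p = 1.71e-11) and RRP12 with -1.38 ± 0.13 (adjusted p = 1.51e-09). Without HEATR1 and NOC3L, which in EAE mice were above 3 RPKM only on day 14, 29 of 37 fell, 17 by more than 1.5-fold. In OVA mice 0 of 37 passed the adjusted threshold with limma, at which 5.92% of all tested genes were higher on day 40 and 3.4% lower, and 5 higher and 4 lower members had an unadjusted p below 0.05, beside 14.8% and 9.72% of all tested genes. Ctrl mice also differed between the days, with 11 of 38 members higher on day 40 against 18.9% of all tested genes and 2 lower against 12.6%. TSR1 was the only member to pass 1.5-fold in Ctrl mice, against 5.02% of all tested genes called higher, with 0.79 ± 0.29 (adjusted p = 0.0368), and without the low day 14 Ctrl replicate 1 the count was 0. The 2 members that fell in Ctrl mice were FBL with -0.52 ± 0.17 (adjusted p = 0.0271) and NOP10 with -0.54 ± 0.17 (adjusted p = 0.0242), and in OVA mice they had -0.45 (adjusted p = 0.096) and -0.52 (adjusted p = 0.0606). With NHP2 and GAR1 these are the 4 members with the shortest annotated exon length, 1042 to 1271 bases, and the part of length in the difference between days was not tested. Differences in age, in time after immunization or between the libraries of the 2 days cannot be told apart.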

How the data were processed

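EDL muscle of 30 female SJL/J mice, 5 in each of 6 groups, was profiled by RNA-seq (poly(A) selection, NEBNext Ultra II Directional kit, paired-end reads). The authors aligned reads to mm10 (GRCm38) with Subread, counted them with featureCounts on RefSeq transcripts and computed RPKM; whether counting used strand is not given in the sources used here. The deposited values are log2(RPKM + 1), a log2 scale, except that genes with no read carry 0.0001 (25.8% of values), and were turned back to RPKM. Samples were grouped by their labels, and no mouse was left out.

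A gene was tested where the mean of 1 or more of the compared groups exceeded 3 RPKM, with limma 3.58.1 (R 4.3.3; lmFit, eBayes with trend) on log2(RPKM + 0.1). A fold change on this scale understates the change of low genes. The 15 mice of a day shared 1 model, and all 30 mice were used for the change of the EAE effect and for day 40 against day 14. P-values were two-sided and adjusted over all tested genes (Benjamini-Hochberg). Genes with an adjusted p below 0.05 passed, and a fold above 1.5 was required as well where stated. Because the RPKM were deposited in place of counts, no count model was used. The method was checked on simulated data. Depth was estimated from the size of the smallest steps with the exon lengths of 20048 genes. Nothing says that mice of a group came from separate cages or litters.

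The members, the gene lists and the tests were chosen with earlier results of these data known. Values of every mouse were given for 18 members chosen by role, to which the members with the largest and the smallest change against Ctrl mice on day 14 in each role added 4. TSR1, UTP18, WDR43, NOP14 and the other members were described as the rest of their role. Of each other list the 2 genes with the largest and the gene with the smallest change were named. Alternatives were other pseudocounts, filters, scalings and models, a replicate block, and leaving out each mouse.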

Additional observations from a re-analysis of the deposited data

Results flagged for a closer look

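Mice that stood apart from the other 4 of their group were found in 6 of the 132 groups of 5 examined for the 22 members given by mouse, and chance gives about 1 in 20. On day 40 POLR1A was lowest in OVA replicate 2, with 6.66 RPKM against 7.95 to 8.16 RPKM in the other OVA mice. POLR1B was lowest in OVA replicate 1 on day 14, with 2.41 RPKM against 3.58 to 4.02 RPKM, and highest in EAE replicate 2 on day 40, with 4.28 RPKM against 3.18 to 3.49 RPKM. RRP9 was highest in EAE replicate 3 on day 40, with 14.2 RPKM against 12.1 to 12.2 RPKM. PES1 was highest in Ctrl replicate 1 on day 14, with 18.1 RPKM against 14.0 to 15.2 RPKM. RRP12 was highest in EAE replicate 5 on day 40, with 13.9 RPKM against 11.6 to 12.0 RPKM.

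The EAE effect of several members differed between day 14 and day 40 in the test of the difference itself, with a smaller effect on day 40 in each. Against Ctrl and against OVA mice the changes were -0.88 and -0.82 for POLR1A (adjusted p = 0.000282 and 0.000813), -0.997 and -1.12 for POLR1B (adjusted p = 0.000204 and 7.3e-05) and -1.08 and -1.08 for MYC (adjusted p = 0.00605 and 0.00898) on the log2 scale. For the snoRNP proteins they were -0.51 and -0.41 for NOP56 (adjusted p = 0.00264 and 0.0178) and -0.43 and -0.49 for RRP9 (adjusted p = 0.0289 and 0.0199). HEATR1 changed by -1.30 and -1.25 (adjusted p = 2.5e-05 and 5.39e-05), BYSL by -0.50 and -0.44 (adjusted p = 0.00133 and 0.00574) and RRP12 by -1.38 and -1.55 (adjusted p = 1.56e-06 and 4.27e-07).

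Of the large subunit factors BOP1 changed by -1.37 and -1.38 (adjusted p = 1.21e-07 and 1.14e-07), NOP2 by -0.68 and -0.58 (adjusted p = 0.000464 and 0.0025) and GNL3 by -1.18 and -0.96 (adjusted p = 9.13e-06 and 0.00015). PES1 passed against OVA mice with -0.37 (adjusted p = 0.0209) and had -0.26 against Ctrl mice (adjusted p = 0.0888). NCL changed by -0.60 and -0.59 (adjusted p = 0.000179 and 0.0003) and DDX21 by -1.58 and -1.14 (adjusted p = 1.05e-06 and 9.26e-05). The comparisons against Ctrl and OVA mice share the EAE mice.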

How the results depend on the processing

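With no fold threshold 28 members passed in EAE against Ctrl and 28 in EAE against OVA mice on day 14, 31 in day 40 against day 14 of EAE mice and 13 in that comparison of Ctrl mice. Scaling to the same sum of RPKM moved the median of all genes from 0.11 to 0.27 against Ctrl and to 0.25 against OVA mice on day 14, beside 0.70 and 0.65 for the members, and gave 23 and 24 called members. With median-of-ratios factors the median of all genes was 0.078 and 0.068, and 16 and 14 members were called. Shares of all tested genes called under each alternative are not given here. The counts therefore show only how the calls of members moved, and are not set against other genes. Leaving out a mouse gave 14 (without EAE replicate 2) to 21 against Ctrl and 12 to 19 against OVA mice on day 14, and 13 of the 18 and 12 of the 16 calls held in every such fit. For the change of the EAE effect it gave 25 to 29 in both tests, for day 40 against day 14 of EAE mice 15 to 21, and for OVA mice 0 to 1 (1 without day 14 OVA replicate 2 or day 40 OVA replicate 5). For Ctrl mice it gave 0 to 4, with 0 without day 14 replicate 1 or day 40 replicates 1, 3 or 5, while no filter and a model of the compared mice alone gave 0, and median-of-ratios factors and the same sum of RPKM each gave 3. The cause was not tested. Day 14 OVA against Ctrl and all day 40 comparisons between groups stayed at 0 in every alternative.

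Among the members given by mouse, directions turned only near 0 in EAE against Ctrl mice on day 14. POLR1C was 0.14 with the same sum of RPKM, and NOB1 was -0.00722 with median-of-ratios factors. Leaving out a mouse gave -0.0648 to 0.0574 for POLR1C, -0.0434 to 0.0796 for NOB1 and -0.0624 to 0.140 for NPM1. For the 21 tested members given by mouse, in EAE against Ctrl and against OVA mice on day 14, 811 recomputed values kept direction and call, 8 lost the call, 12 gained it and 9 turned. Of the other members, leaving out a mouse ended the call of WDR12 in 4 fits, WDR75 in 1 and NOC3L in 1 against Ctrl, and of WDR12 in 4, NOC2L in 2 and NOC3L in 2 against OVA mice, and added NIP7 in 3 fits against Ctrl and RRP1B in 2 against each. Replicate numbers showed no general pairing of the mice. Of 30 same-number pairs 8 correlated above 0.1, with a median r of -0.075 and a range from -0.715 to 0.686. The median r of pairs with other numbers was -0.001, and 3 mice correlated best with their own number. These correlations cannot exclude a pairing or a batch shared by some of the mice. With a replicate block 18 members were called against Ctrl and 17 against OVA mice on day 14, 26 and 27 for the change of the EAE effect, 19 for EAE mice and 1 for Ctrl mice between days, and 0 elsewhere. The limit of 3 RPKM left 3 to 5 members untested, depending on the groups compared.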

Other observations

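Genes around the ribosome biogenesis factors were measured in the same comparison of EAE against Ctrl mice on day 14. A list of 16 genes held targets of p53, which is known to be activated when ribosome assembly is disturbed, and TRP53, the p53 gene itself. Of the 16 genes 12 were tested, 8 (66.7%) rose and 1 fell, beside 28.8% and 19% of all tested genes. The median log2 fold change was 0.67. Only 10 of the list passed the limit for testing in OVA against Ctrl mice on day 14. Some of the 12 therefore reached it only through EAE mice. EDA2R, a receptor of the TNF family, rose with 4.22 ± 0.34 (adjusted p = 7.53e-07), CDKN1A, the cell cycle inhibitor p21, with 2.94 ± 0.30 (adjusted p = 4.38e-06), and SESN1 fell by 0.66 on the log2 scale (adjusted p = 0.00403). On day 40 none of 12 tested genes of this list rose and 1 fell, beside 0.288% and 2.35% of all tested genes. Several of these targets are also known to respond to other signals.

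RNA polymerase III, which makes the smallest ribosomal RNA and tRNAs, had 15 listed genes, of which 12 were tested. Of these 2 (16.7%) rose, beside 28.8% of all tested genes, with a median of 0.11 like that of all tested genes. POLR3F had 0.49 ± 0.16 (adjusted p = 0.0231), BRF1 0.29 ± 0.10 (adjusted p = 0.0251) and BRF2 -0.30 ± 0.12 (adjusted p = 0.0518). In the MYC network of 12 partners and antagonists 8 were tested and 1, MLX, passed with 0.26 ± 0.10 (adjusted p = 0.0398), while MLXIP had 0.44 ± 0.21 (adjusted p = 0.0915), MGA 0.42 ± 0.26 (adjusted p = 0.189) and MLXIPL -0.25 ± 0.15 (adjusted p = 0.185). MAX, the partner of MYC, had -0.19 ± 0.09 (adjusted p = 0.0954). Promoter windows were found for 34 further small subunit factors, 40 further large subunit factors and 58 cytosolic ribosomal protein genes. The string CACGTG was in 29.4%, 17.5% and 10.3% of these genes with a window, and CCGGAAG in 44.1%, 47.5% and 41.4%. Of all genes with a window 8.09% had CACGTG and 9.93% CCGGAAG. Of the 7078 that passed the level limit on day 14 these were 12.6% and 21.6%.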
